A study of Mus musculus with 4 samples.

Results

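MHC class II molecules display peptides from the endosome to CD4+ T cells, and 7 of the genes that build, load and switch on this system were followed in neonatal liver myeloid cells with and without the PD-1 deletion. The members were the rows of the expression files whose gene symbol was H2-Aa, H2-Ab1, H2-Eb1, Cd74, Ciita, H2-DMa or H2-DMb1, and all 7 were found among the 24706 genes of each file. RNA-seq libraries labelled as mouse myeloid cells were compared, 2 of genotype wt and 2 of genotype cko. In the study the controls are PD-1f/f mice, which carry the floxed Pdcd1 gene without Cre, although its methods name wild-type mice, and the cko animals are PD-1f/f; LysM-Cre mice, whose Cre is expressed from the lysozyme locus (Lyz2). This driver is active in monocytes, macrophages and neutrophils and not in lymphocytes, so the deletion would not reach every cell of a liver sample. The results of the study describe CD11b+ cells sorted at postnatal day 3, whereas its methods describe RNA of livers at postnatal day 2 and name no sorting. The strain, the sex and the number of animals per library are not given in the sources used here. Since nothing states that libraries of a group came from separate animals, every p-value below measures only the spread between these libraries, which may be technical.

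In this system H2-Aa and H2-Ab1 encode the alpha and beta chains of the I-A molecule, and H2-Eb1 encodes the beta chain of I-E. Cd74 encodes the invariant chain, which occupies the groove and guides new class II molecules to the endosome, where cathepsins trim it to the CLIP fragment. The H2-DM dimer, made of H2-DMa and H2-DMb chains, then exchanges CLIP for an endosomal peptide. Ciita encodes the transactivator that is required for expression of these genes and is itself induced by interferon gamma. Dendritic cells, B cells and activated macrophages are the cells best known for class II expression, while neutrophils and immature monocytes carry little of it.

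Ciita binds no DNA itself and acts through proteins that sit on a shared promoter module, in which a CREB-binding X2 box is followed by an inverted CCAAT motif, the Y box bound by NF-Y. The stretches below show this layout in 3 members. They were read from the RefSeq promoter windows (GRCm38.p6, 250 bases before to 50 after each start) and are printed 5′ to 3′ on the strand of the gene. Capitals mark TGANG, a short form of the X2 box, and GATTGG, the core of the Y box, 15 to 25 bases further on.
H2-Aa: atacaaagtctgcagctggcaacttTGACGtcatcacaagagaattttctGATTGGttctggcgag
H2-Eb1: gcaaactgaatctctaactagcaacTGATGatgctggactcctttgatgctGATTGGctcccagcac
H2-DMb1: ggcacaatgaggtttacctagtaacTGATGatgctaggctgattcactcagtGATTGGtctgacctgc

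The H2-Aa stretch is at chr17:34287857-34287922 on the minus strand, with 20 bases between the motifs. That of H2-Eb1 is at chr17:34305756-34305822 on the plus strand, with 21 bases between them. That of H2-DMb1 is at chr17:34153077-34153144 on the plus strand, with 22 bases between them, and it lies before the RefSeq start but after the gene start of the deposited files. The spaced pair, searched on both strands, was found in 3 of the 5 windows of members, against 0.846% of all 32851 windows, and GATTGG alone in 16.1% of all windows. The 5 windows belong to H2-Aa, H2-Eb1, H2-DMb1 and, with a pair of start sites, H2-DMa. Neither H2-DMa window held the pair, and both lie some distance from the H2-DMa start of the files, at 12350 and 9664 bases from it. A match describes letters only, and the libraries hold no measurement of binding.

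The deposited values are FPKM, in which reads are scaled to both gene length and library total, so that levels of different genes can be set side by side on this scale. From their steps, 17691505 to 22212407 counted reads per library and the reads of each member were recovered. Groups were compared with limma on log2(FPKM + 1), with Benjamini-Hochberg adjustment over the 10779 genes whose mean reached 1 FPKM; fold changes on this scale (log2FC) are cko against wt and are understated for low genes. No gene passed an adjusted p under 0.05 with |log2FC| of at least 1, while 1768 had an unadjusted p under 0.05 and voom on recovered reads called 2 genes at the adjusted threshold. The targeted gene Pdcd1 was at 28.5 and 34.7 FPKM in wt and 17.1 and 21.4 in cko. Lyz2, the locus of the Cre, was at 31306 and 32147 FPKM in wt and 10422 and 8127 in cko. Itgam, which encodes CD11b, was at 48.5 to 54.3 FPKM and Ptprc, which encodes CD45, at 58.1 to 75.1. On the first principal component, with 55.1% of the variance, cko replicate 2 lay farther from the wt libraries (37.4) than cko replicate 1 (11.4). Some of the results that rest on cko replicate 2 are also given without it.

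The 7 genes were expressed at a modest level in both groups, and their summed level did not separate wt from cko. Together they took 2412 and 2321 reads in the wt libraries and 2115 and 2606 in the cko libraries. As RPM, which scales reads to the library total but not to gene length, this was 109 (95% Clopper-Pearson interval 104 to 113) and 123 (118 to 128) in wt, and 113 (108 to 118) and 147 (142 to 153) in cko, intervals that cover counting error only. Thus cko replicate 1 lay between the wt libraries and cko replicate 2 above both. In bulk libraries, fewer cells of a type and less RNA per cell cannot be told apart. The 6 members other than Ciita passed the filter and lay between percentiles 56.4 and 77.5 of the tested genes by mean FPKM. Of these 6, 4 had a log2FC above 0 and 2 below, with a median of 0.10, where the median of all tested genes was 0.09 and 60.4% were above 0. With median-of-ratios scaling 3 of 6 were above 0, and with quantile normalization 2 of 6.

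By mean FPKM over the 4 libraries H2-DMa came first (18.4), followed by Cd74 (14.2), H2-Eb1 (14.1), H2-Aa (13.1), H2-Ab1 (11.9), H2-DMb1 (7.26) and Ciita (0.241). The order of the first 5 was not held in every library. Cd74 was above H2-Eb1 in 2 of 4 libraries, and H2-DMa, H2-Eb1, H2-Aa and H2-Ab1 were each above the next gene in 3 of 4. Ciita lay below H2-DMb1 in all 4.

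**Figure D1:**
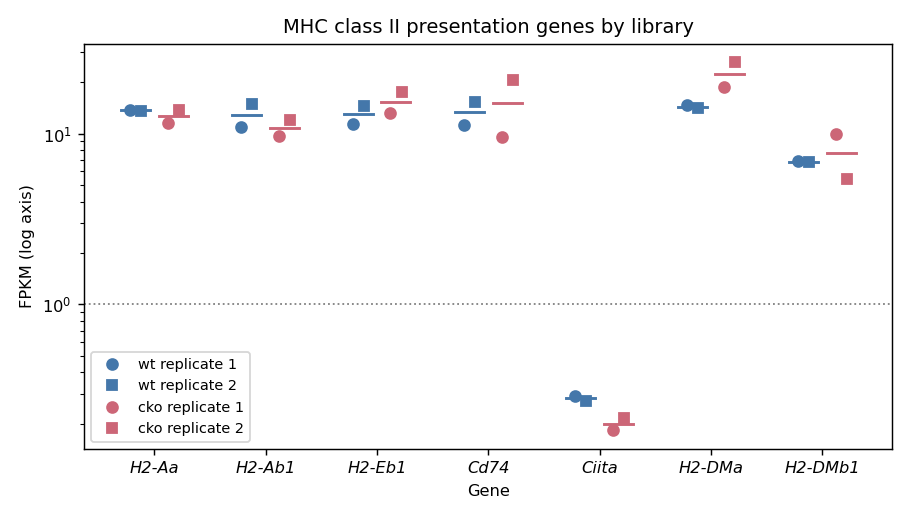
FPKM (log axis) of the 7 MHC class II presentation genes in each library, with circles and squares for replicates 1 and 2, horizontal bars for the mean of the 2 libraries of a group and a dotted line at the minimum mean of 1 FPKM. The groups are apart for H2-DMa, higher in cko, and for Ciita, lower in cko, and overlap for the other 5 genes.

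The chains that present peptide overlapped between the groups. H2-Aa (ENSMUSG00000036594, chr17:34282744-34287827, minus strand) was at 13.7 and 13.6 FPKM in wt and at 11.5 and 13.8 in cko. One cko library was thus below and the other slightly above the wt pair, and the means were 13.6 ± 0.0974 in wt and 12.6 ± 1.61 in cko (SD, n = 2). The log2FC was -0.11 (SE 0.163, 95% interval -0.52 to 0.30), with an adjusted p of 0.770. H2-Ab1 (ENSMUSG00000073421, chr17:34263209-34269418, plus strand), its partner chain, was at 10.9 and 14.9 FPKM in wt and at 9.68 and 12.02 in cko. The lowest value was again in cko replicate 1, but cko replicate 2 lay inside the wt range. Its log2FC was -0.22 (SE 0.212, -0.75 to 0.31) with an adjusted p of 0.630.

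H2-Eb1 (ENSMUSG00000060586, chr17:34305877-34316199, plus strand) had values of 11.3 and 14.6 FPKM in wt and 13.2 and 17.5 in cko. The highest value was in cko replicate 2, and cko replicate 1 fell between the wt libraries. The log2FC was 0.22 (SE 0.210, -0.30 to 0.75) and the adjusted p 0.619. For all 3 chains the intervals include both a lower and a higher level in cko, so that these libraries do not set a direction for I-A or I-E.

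Cd74, the invariant chain (ENSMUSG00000024610, chr18:60803848-60812646, plus strand), was the member with the widest spread within cko. Its FPKM was 11.3 and 15.3 in wt and 9.61 and 20.6 in cko, so that the cko libraries held both the lowest and the highest value. These values rest on 353, 407, 254 and 514 reads. In RPM the cko libraries were at 13.6 (11.9 to 15.3) and 29.1 (26.6 to 31.7), so that the difference between these replicates exceeded counting error. The group means were 13.3 ± 2.87 and 15.1 ± 7.77 (SD, n = 2). The log2FC of 0.10 (SE 0.362, -0.81 to 1.0; adjusted p = 0.917) turned to -0.42 without cko replicate 2 and to -0.11 without wt replicate 1, and it was 0.61 without cko replicate 1 and 0.30 without wt replicate 2.

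H2-DMa, the alpha chain of the peptide exchange factor (ENSMUSG00000037649, chr17:34135182-34139101, plus strand), was the only member with both cko libraries above both wt libraries. It was at 14.6 and 14.1 FPKM in wt and at 18.6 and 26.1 in cko, from 534, 435, 573 and 758 reads. The wt libraries were close to each other, and the cko libraries differed from one another by more than the nearer one differed from wt. The means were 14.4 ± 0.401 and 22.4 ± 5.29 (SD, n = 2), a 1.56-fold higher level in cko. The log2FC was 0.59 (SE 0.200, 0.09 to 1.08), with an unadjusted p of 0.0285 and an adjusted p of 0.261, and thus did not pass the test over all genes. Among all tested genes 33.6% had both cko libraries above both wt libraries, and 11.4% had an unadjusted p under 0.05 with a higher level in cko. H2-DMa was 1 of the 6 tested members in either class. Of these members 0 had an unadjusted p under 0.01 with |log2FC| above 1, a pair of limits passed by 2.29% of all tested genes.

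The log2FC of H2-DMa stayed above 0 in every alternative, but its unadjusted p did not stay under 0.05. It was 0.61 without wt replicate 1 (unadjusted p = 0.094), 0.56 without wt replicate 2 (0.117), 0.35 without cko replicate 2 (0.107) and 0.82 without cko replicate 1 (0.008). Median-of-ratios scaling gave 0.48 with an unadjusted p of 0.055, and the replicate block left 0.59 with one of 0.050, just above the threshold.

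H2-DMb1, a beta chain of the same dimer (ENSMUSG00000079547, chr17:34153072-34160230, plus strand), did not follow H2-DMa. It was at 6.88 and 6.80 FPKM in wt and at 9.92 and 5.44 in cko. The cko libraries lay on either side of the wt pair, and cko replicate 2, which had the highest H2-DMa, had the lowest H2-DMb1. Its log2FC was 0.10 (SE 0.277, -0.59 to 0.79; adjusted p = 0.886), -0.28 without cko replicate 1 and 0.48 without cko replicate 2, and it was -0.01 with quantile normalization. The neighbouring gene H2-DMb2 encodes a second beta chain, and reads of near-identical stretches may have been assigned to either gene or dropped.

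Ciita, the transactivator (ENSMUSG00000022504, chr16:10488178-10527564, plus strand), stayed below the minimum of 1 FPKM and was not tested with the other genes. It was at 0.291 and 0.273 FPKM in wt and at 0.183 and 0.215 in cko, from 34, 27, 18 and 20 reads. Both cko libraries were below both wt libraries, as for 18.0% of the tested genes. In RPM the values were 1.53 (1.06 to 2.14) and 1.43 (0.945 to 2.09) in wt, and 0.960 (0.569 to 1.52) and 1.13 (0.691 to 1.75) in cko. These intervals cover counting error only and overlap between libraries. The ratio of the group means was -0.50 on the log2 scale, and voom on recovered reads, which tested the gene, gave -0.50 with an unadjusted p of 0.489 (adjusted p = 0.759), so that the difference did not pass that test. Dexi overlaps Ciita on the opposite strand with 0.0671 to 0.254 FPKM, and strand use in the counting is not given in the sources used here.

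Ratios within a library compare members without the scaling between libraries. Of 8 ratios, 1 had the groups apart: H2-DMa divided by the mean of H2-Aa, H2-Ab1 and H2-Eb1 was 1.22 and 0.982 in wt and 1.63 and 1.81 in cko. In cko both libraries thus had more H2-DMa FPKM per presenting chain than either wt library. The log2 difference was 0.65, and 0.49 to 0.80 with each library left out. A two-sided exact permutation test gave p = 0.333, the smallest value that 2 against 2 libraries allow, and 1 after adjustment over the 8 ratios. H2-DMb1 over the same chains was 0.575 and 0.474 in wt and 0.865 and 0.377 in cko, and the ratios of the other members to Cd74 overlapped as well.

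**Figure D2:**
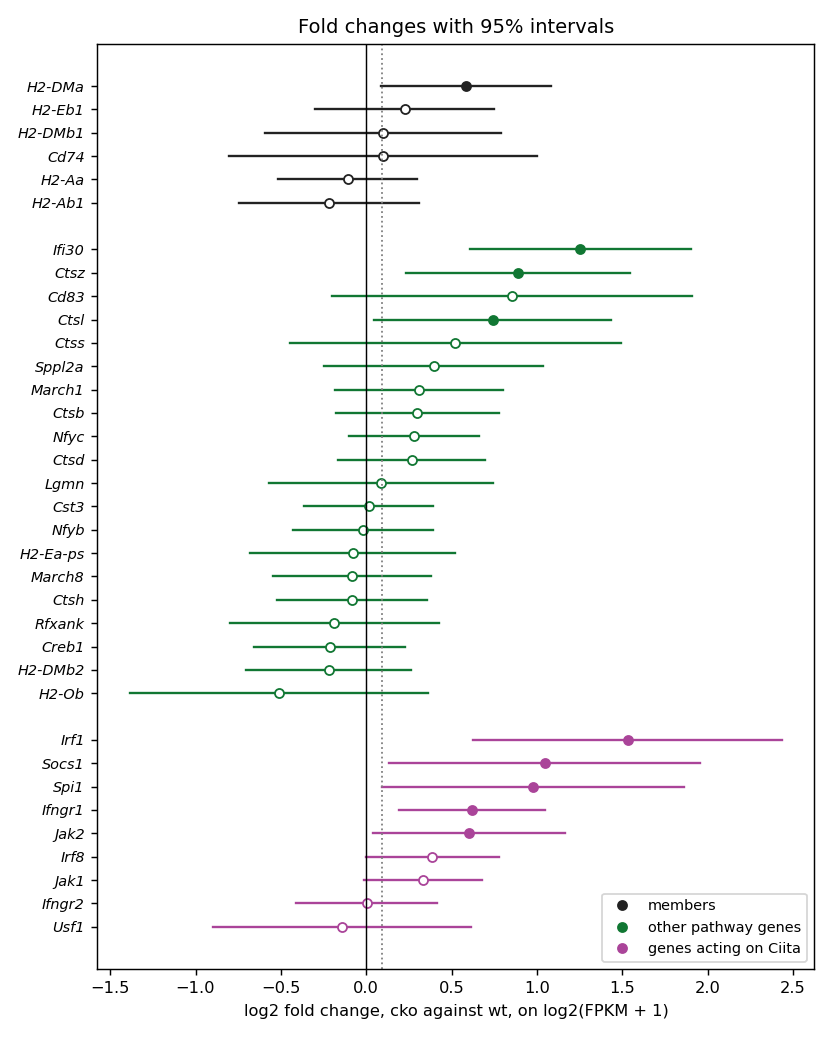
Log2 fold changes (cko against wt, on log2(FPKM + 1)) with 95% intervals for the tested members, the other pathway genes and genes that act on Ciita. Filled points have an unadjusted p under 0.05, none passed adjustment over all genes, and the dotted line is the median of all tested genes (0.09).

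The other class II genes of the cluster did not pass the test or lay below the minimum. H2-Ea-ps, the I-E alpha gene, which the annotation lists as a pseudogene, was at 10.2 and 10.6 FPKM in wt and 7.70 and 12.4 in cko. H2-DMb2 was at 17.7 and 16.2 FPKM in wt and 16.8 and 12.3 in cko, with a log2FC of -0.22 and an adjusted p of 0.596. H2-Ob, the beta chain of H2-O, which restrains H2-DM in B cells, was at 2.07 and 0.977 FPKM in wt and 0.440 and 1.08 in cko (log2FC -0.51, adjusted p = 0.488). Its partner H2-Oa was below the minimum at 0.284 to 0.817 FPKM. All 3 tested paralogs had a log2FC below 0, their median was -0.22, none had an unadjusted p under 0.05, and all 3 stayed below 0 under both other scalings. No gene with the symbol H2-Eb2 was found among the deposited values, so its level is not given.

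The proteins that hold Ciita on the promoter module did not pass the test or were too low to enter it. Of 4 tested genes, 1 had a log2FC above 0 and 3 below, with none under an unadjusted p of 0.05. Nfyc, an NF-Y subunit, was at 8.10 and 8.20 FPKM in wt and 10.3 and 9.88 in cko (log2FC 0.28, adjusted p = 0.410). Nfyb (-0.02), Creb1 (-0.21) and the RFX subunit gene Rfxank (-0.19) lay below 0 in log2FC. Nfya, Rfxap and Rfx5 were below the minimum. Rfx5, which encodes the DNA-binding RFX subunit, was at 0.0246 and 0.319 FPKM in wt and 0.524 and 0.535 in cko, or 3, 33, 54 and 52 reads. Its cko libraries were alike, whereas the wt libraries differed from one another by more than wt replicate 2 differed from cko. Voom gave Rfx5 a log2 fold change of 2.61 with an adjusted p of 0.312.

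The proteases and the reductase that prepare peptides and trim the invariant chain were the group of the pathway with most values higher in cko. The group also holds the cathepsin inhibitor gene Cst3, whose log2FC of 0.01 counts among those above 0. Of 10 tested genes 9 had a log2FC above 0, against 60.4% of all tested genes, with 7 of 10 under either other scaling and 6 of 10 without cko replicate 2. Their median log2FC was 0.35, beside 0.09 for all genes, and it was 0.06 without cko replicate 2. An unadjusted p under 0.05 was reached by 3 genes, Ifi30, Ctsz and Ctsl, all higher in cko, against 11.4% of all tested genes, and none passed adjustment. Both cko libraries were above both wt libraries for 6 of the 10, against 33.6% of all tested genes. Among the 20 tested genes of the wider pathway 8 were apart in this direction, Nfyc and Cd83 beside these 6. In that wider pathway 12 genes had a log2FC above 0, and Ifi30, Ctsz and Ctsl were the only ones higher with an unadjusted p under 0.05.

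Ifi30 encodes GILT, the reductase that opens disulphide bonds of antigens in the endosome. It was at 21.8 and 20.5 FPKM in wt and at 40.0 and 67.2 in cko, so that both cko libraries were well above the wt pair. The log2FC was 1.25 (SE 0.260, adjusted p = 0.205), and it lay between 0.89 and 1.62 with single libraries left out. Its unadjusted p of 0.004 was under 0.05 in all 13 settings.

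Ctsz, which encodes the carboxypeptidase cathepsin Z, was at 34.1 and 34.5 FPKM in wt and 49.3 and 84.0 in cko. Its log2FC was 0.89 (SE 0.263, adjusted p = 0.233), and 0.51 without cko replicate 2 and 1.27 without cko replicate 1. The unadjusted p was under 0.05 in 11 of 13 settings, and not without wt replicate 1 (0.077) or wt replicate 2 (0.074). Ctsl, which encodes cathepsin L, was at 12.2 and 9.76 FPKM in wt and 14.4 and 24.7 in cko. Its log2FC of 0.74 (SE 0.279, adjusted p = 0.284) was 0.37 without cko replicate 2, and the unadjusted p of 0.041 was under 0.05 in only 5 of 13 settings.

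Ctss, which encodes cathepsin S, the enzyme best known for the last cut of the invariant chain in antigen-presenting cells, overlapped between the groups. It was at 69.7 and 50.5 FPKM in wt and 57.5 and 127 in cko (log2FC 0.52, adjusted p = 0.522). Its high value was in cko replicate 2 alone, the library that also had the highest Cd74. Sppl2a, the intramembrane protease that removes the remaining invariant chain stub, was also highest in cko replicate 2, at 10.03 and 9.73 FPKM in wt and 10.2 and 17.2 in cko. Ctsb, Ctsd and Lgmn had log2FC of 0.30, 0.27 and 0.08, Ctsh of -0.08, and the cathepsin inhibitor gene Cst3 of 0.01.

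**Figure D3:**
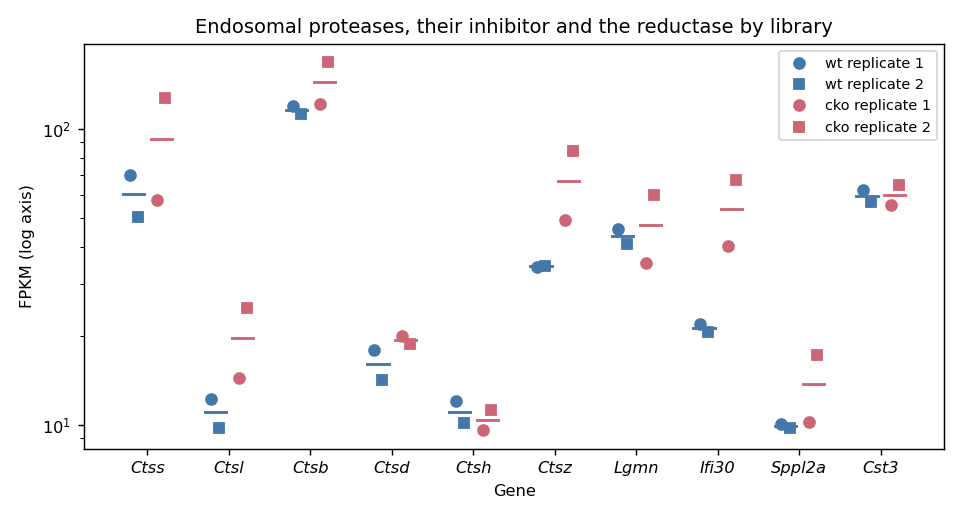
FPKM (log axis) of 10 genes of antigen processing in each library, with circles and squares for replicates 1 and 2 and horizontal bars for the mean of the 2 libraries of a group. Both cko libraries are above both wt libraries for 6 genes, Ifi30, Ctsz, Ctsl, Ctsb, Ctsd and Sppl2a, and the groups overlap for Ctss, Ctsh, Lgmn and Cst3.

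The genes that govern surface turnover did not pass the test either. March1, a ubiquitin ligase that sends surface class II to lysosomes, was at 18.8 and 15.5 FPKM in wt and 18.7 and 24.4 in cko (log2FC 0.31, adjusted p = 0.462). Cd83, which opposes March1, was at 2.66 and 2.11 FPKM in wt and 2.95 and 8.42 in cko (log2FC 0.85, adjusted p = 0.372). Most of the Cd83 difference lay in cko replicate 2. March8 had a log2FC of -0.08.

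Upstream of Ciita, 8 of 9 tested genes had a log2FC above 0, against 60.4% of all tested genes, or 7 of 9 under either other scaling. Their median was 0.60, and 0.35 without cko replicate 2. An unadjusted p under 0.05 was reached by 5 genes, all higher in cko, against 11.4% of all tested genes, and none passed adjustment. The count was 3 under median-of-ratios scaling, quantile normalization and the replicate block, 1 without wt replicate 1, 2 without wt replicate 2 and 3 without cko replicate 2.

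Irf1, the interferon-induced factor that acts on a Ciita promoter, was at 25.9 and 21.2 FPKM in wt and 47.4 and 102 in cko. Both cko libraries were above wt, with the higher value again in cko replicate 2. Its log2FC was 1.53 (SE 0.362, adjusted p = 0.214), 0.99 without cko replicate 2, and its unadjusted p was under 0.05 in all 13 settings. Ifngr1, a chain of the interferon gamma receptor, was at 121 and 112 FPKM in wt and 158 and 204 in cko (log2FC 0.62, SE 0.171, adjusted p = 0.222), with an unadjusted p under 0.05 except without wt replicate 1 (0.052) or wt replicate 2 (0.083). Jak2, a kinase of the receptor complex, was at 4.46 and 3.90 FPKM in wt and 5.60 and 8.33 in cko (log2FC 0.60, adjusted p = 0.284). Jak2 was under an unadjusted p of 0.05 in 5 of 13 settings. Without cko replicate 2 its log2FC was 0.35.

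Spi1, which encodes the myeloid factor PU.1, was at 77.3 and 126 FPKM in wt and 264 and 145 in cko, with cko replicate 1 the higher one. Its log2FC was 0.98 (SE 0.355, adjusted p = 0.275), and its unadjusted p was under 0.05 in 6 of 13 settings. Without cko replicate 1 the log2FC was 0.55, and without wt replicate 1 it was 0.63. Socs1, an inhibitor of interferon gamma signalling, was at 8.19 and 8.14 FPKM in wt and 11.9 and 26.8 in cko. Its log2FC was 1.04 (SE 0.365, adjusted p = 0.266), 0.49 without cko replicate 2 and 1.6 without cko replicate 1, and its unadjusted p was under 0.05 in 9 of 13 settings.

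Other genes of the same route did not pass the test or lay below the minimum. Ifngr2, the other chain of the interferon gamma receptor, was at 44.1 and 40.8 FPKM in wt and 38.1 and 47.3 in cko, with a log2FC of 0.00. Jak1 (0.33), Irf8 (0.39) and Usf1 (-0.14) had an unadjusted p above 0.05. Ifng was at 0.104 and 0.0410 FPKM in wt and 0.330 and 0.393 in cko, below the minimum, as were Irf4, Tgfb1, Il10 and Prdm1. Prdm1 encodes Blimp-1, a repressor of Ciita, and was at 0.0242 and 0.0667 FPKM in wt and 0.383 and 2.08 in cko. Il10 was at 0.206 and 0 FPKM in wt and 0.692 and 1.64 in cko. Both were higher in the cko libraries, and voom gave them adjusted p-values of 0.366 and 0.381.

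Because class II genes differ more between cell types than most genes, the levels of marker lists are set beside them. Of 14 dendritic cell markers only 3 passed the filter, and the defining ones Flt3 (0.198 to 0.693 FPKM), Zbtb46 (0.0900 to 0.533) and Siglech (0.10 to 0.552) were low in all 4 libraries. The summed list was at 34.9 and 37.4 FPKM in wt and 28.2 and 41.0 in cko, mostly Bst2, which many cells express. Itgax, which encodes CD11c, was at 0.506 and 0.852 FPKM in wt and 0.678 and 3.17 in cko (log2FC 0.66). It was highest in cko replicate 2, as were Cd74, H2-Eb1, H2-DMa and, by a small margin, H2-Aa. H2-Ab1 was highest in wt replicate 2, Ciita in wt replicate 1 and H2-DMb1 in cko replicate 1. The other defining markers did not share the Itgax peak. Flt3 was highest in wt replicate 1, and Zbtb46 and Siglech in cko replicate 1, with Siglech lowest in cko replicate 2. The other tested genes of the list, Bst2 and Ly6d, had log2FC of -0.15 and -0.30. The part of dendritic cells in the values of the members was not tested.

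Of 14 B cell markers, all 8 that passed the filter had a log2FC below 0, under both other scalings too, with a median of -0.51 and values from -0.87 for Ms4a1 to -0.0044 for Ebf1. An unadjusted p under 0.05 was reached by 3, against 4.95% of all genes in that direction, and none passed adjustment. Among the genes below the filter, Fcer2a (0 and 0.0515 FPKM in wt, 0.276 and 0.201 in cko) and Cr2 (0.0277 and 0.0262 in wt, 0.0592 and 0.0557 in cko) had both cko libraries above wt. These values rest on 0, 3, 16 and 11 reads for Fcer2a and 5, 4, 9 and 8 for Cr2. Blnk, at 0.684 and 1.26 FPKM in wt and 0.508 and 0.613 in cko, had both cko libraries below wt, and Pax5, Cd22 and Rag1 overlapped. The list summed to 58.4 and 75.9 FPKM in wt and 38.0 and 50.4 in cko, and Pax5 was at 0.132 to 0.390. Cd79a, of the B cell receptor complex, was at 16.4 and 21.6 FPKM in wt and 10.8 and 12.7 in cko (log2FC -0.64, adjusted p = 0.238). Ms4a1, which encodes CD20, was at 3.40 and 3.13 FPKM in wt and 1.21 and 1.47 in cko (log2FC -0.87, adjusted p = 0.214). Ciita also had both cko libraries below both wt libraries, H2-Ab1 and H2-Ob overlapped, and the part of B cells in their values was not tested.

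Monocyte markers had a log2FC above 0 in 10 of 11 tested genes of 12, against 60.4% of all tested genes, with a median of 0.58. Of these, 4 were higher with an unadjusted p under 0.05, against 11.4% of all tested genes, and none passed adjustment. The gene below 0 was the defining marker Ly6c2, at 343 and 360 FPKM in wt and 333 and 315 in cko (log2FC -0.12, adjusted p = 0.676). The other defining markers, Ccr2 and Cx3cr1, overlapped between the groups. The summed monocyte list was at 983 and 865 FPKM in wt and 1221 and 1299 in cko. A large part of each sum was Ifitm6, at 442 and 359 FPKM in wt and 697 and 662 in cko. Without cko replicate 2 only 6 of the 11 were above 0 and the median was 0.09. Macrophage markers summed to 453 and 328 FPKM in wt and 349 and 630 in cko, with 7 of 11 tested genes of 13 above 0, 6 of 11 under either other scaling and 3 of 11 without cko replicate 2. Of their 3 defining genes, Adgre1, which encodes F4/80, was at 7.27 and 5.37 FPKM in wt and 4.64 and 10.03 in cko, and C1qa at 118 and 91.8 in wt and 86.5 and 140 in cko. Both genes were lowest in cko replicate 1 and highest in cko replicate 2, whereas Mertk, the third, was at 0.883 and 0.453 FPKM in wt and 1.32 and 0.873 in cko, highest in cko replicate 1. The genes of the list under an unadjusted p of 0.05 were C1qc, at 8.67 and 8.20 FPKM in wt and 10.6 and 15.6 in cko, and Cd68, at 26.3 and 32.0 in wt and 37.7 and 69.3 in cko, and neither passed adjustment. The part of monocytes and macrophages in the values of H2-DMa, Cd74, Ifi30 and the cathepsins was not tested.

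Neutrophil markers summed to 161316 and 137139 FPKM in wt and 110677 and 91899 in cko. Of 13 genes 4 had a log2FC above 0, against 60.4% of all tested genes, and the median was -0.40. With quantile normalization 7 of 13 were above 0 and the median was 0.01. At an unadjusted p under 0.05, 6 genes were lower and 3 higher. The lower ones were all defining markers, S100a8 (log2FC -1.07), S100a9 (-0.72) and Ly6g (-0.79), and also Camp, Retnlg and Mmp8. The higher ones were Prtn3, Csf3r and Elane. The shares of all tested genes were 4.95% lower and 11.4% higher, and no gene of the list passed adjustment. Lists of eosinophils, basophils and mast cells (median -0.19), T and innate lymphoid cells (-0.68), erythroid cells (-0.67), hepatocytes (-0.44) and endothelial and stromal cells (-0.20) had medians below 0. The T cell gene Cd3e was at 0 in 3 of the 4 libraries, but other genes of its list were not. Cd3g was at 0.0653 to 0.344 FPKM, and Ncr1 at 1.84 and 1.38 in wt and 0.173 and 1.03 in cko. Cd3d was at 6.50 and 7.55 FPKM in wt and 4.62 and 3.15 in cko (log2FC -0.73, adjusted p = 0.236).

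**Figure D4:**
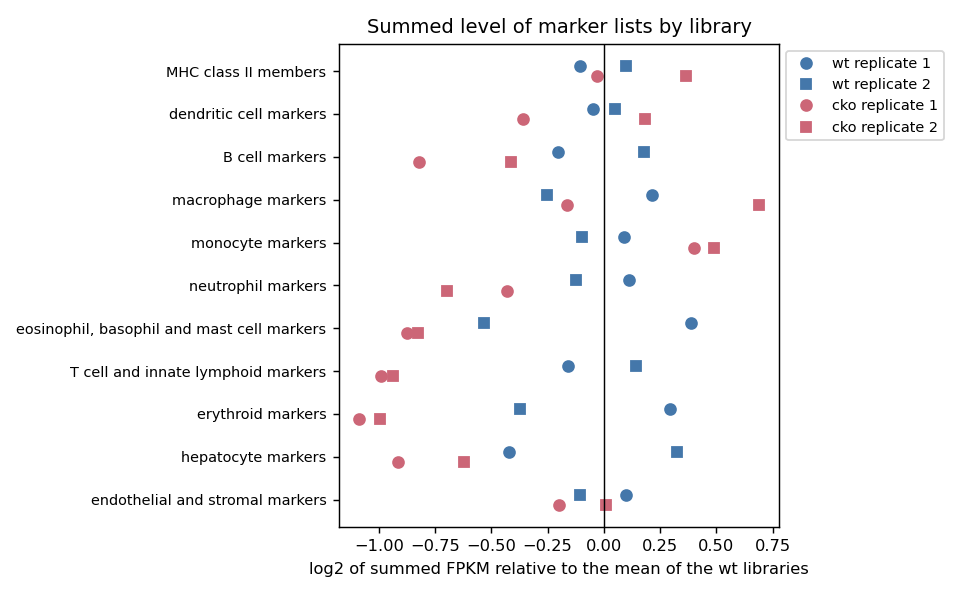
Summed FPKM of the MHC class II members and of each marker list in each library, as log2 relative to the mean of the 2 wt libraries, with circles and squares for replicates 1 and 2. Both cko libraries lie below both wt libraries for markers of B cells, neutrophils, eosinophils with basophils and mast cells, T cells, erythroid cells and hepatocytes and above them for monocyte markers, while the groups overlap for the class II members and the other lists.

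The genes whose pattern over the 4 libraries was most like the mean of the 6 tested members were Tmem135, Fchsd2, Mrpl37, Fam126b and Rbm8a, by the Euclidean distance of centred log2(FPKM + 1) values, which was 0.0139 to 0.0369. The mean pattern was -0.15 and 0.03 in wt and -0.08 and 0.19 in cko. The 6 tested members were left out of the ranking. Their own patterns differed, with H2-DMa at 0.53 and H2-DMb1 at -0.33 in cko replicate 2. With 4 libraries many genes can come this close, and no other class II or antigen-processing gene was among the 5.

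**Figure D5:**
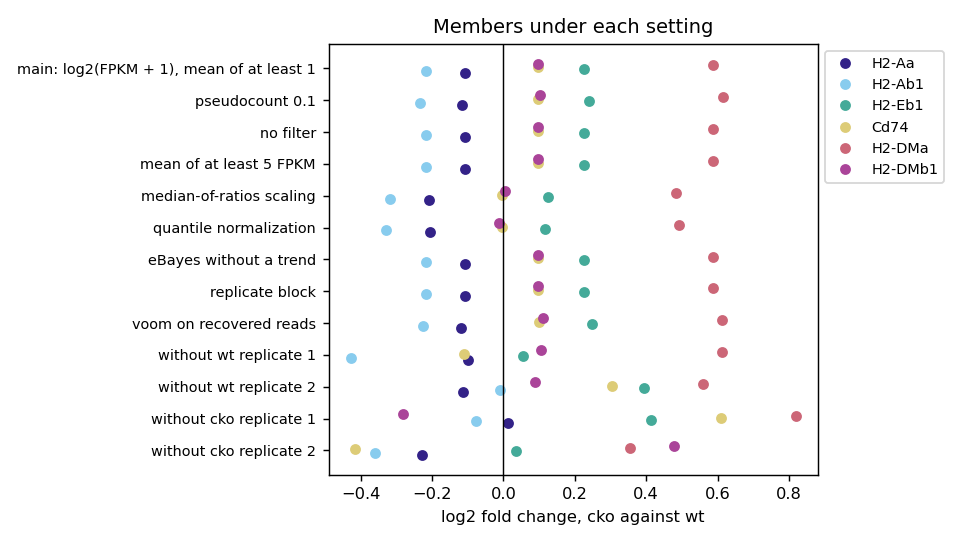
Log2 fold change (cko against wt) of the 6 tested members under each processing setting, including each library left out in turn. H2-DMa and H2-Eb1 stay above 0 and H2-Ab1 below 0 in every setting shown, and H2-Aa, Cd74 and H2-DMb1 lie on both sides of 0.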

How the data were processed

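RNA-seq of 4 libraries (2 wt, 2 cko, grouped by their labels) was analysed. The authors deposited FPKM values per gene (called RPKM in the methods), not scaled further between libraries. The submitters' processing notes name TopHat2 2.0.12, Bowtie2 2.2.3, HTSeq 0.6.0 and mm9, yet 92.7% of the gene positions are identical to GENCODE M21 (GRCm38), so coordinates are those of GRCm38. Symbols turned into dates (23, March1 and March8 among them) were matched by identifier.

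Library totals came from single-exon genes, of which over 99.9% of values were whole multiples of 1 read (tolerance 0.01 read), and reads were recovered for 99.2% of genes, those of the members with the smallest length that made all values whole. At a length of 1 kb, 1 read is worth 0.0450 to 0.0565 FPKM. Differences were tested with limma 3.58.1 (R 4.3.3; lmFit and trended eBayes, no covariates) on log2(FPKM + 1) for genes whose mean reached 1 FPKM, with Benjamini-Hochberg adjustment. The fit was tested on simulated data. Ratios were compared by two-sided exact permutation tests. Alternatives were a pseudocount of 0.1, no filter, a minimum of 5 FPKM in the mean, quantile and median-of-ratios scaling, a block for the replicate number, untrended eBayes, voom on recovered reads and each library left out. The log2 ratio of mean FPKM and 3 ratios between H2-DM chains were added after values were seen.

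All 7 members, all genes of the pathway and Ciita lists under an unadjusted p of 0.05 or below the filter, defining markers and the 5 genes of nearest pattern were to be named; other list genes were named as examples. The members and lists were chosen with earlier results of these data known. Promoter windows were from RefSeq (GRCm38.p6), and 5 windows matched 4 of the members by symbol. 1 gene of the Ciita list is not reported here and was left out of its counts.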

Additional observations from a re-analysis of the deposited data

How the results depend on the processing

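Most results kept their direction, but H2-Aa, Cd74 and H2-DMb1 each changed sign in at least 1 setting. Single genes were held to an adjusted p under 0.05. No member or pathway gene given with its values above met this in any setting, so none could lose it. By unadjusted p, H2-DMa, Ctsl, Jak2, Spi1 and Socs1 changed side even between settings with all libraries kept. With 2 libraries per group each omission leaves a lone library that is assumed to vary like the other group. A minimum mean of 5 FPKM, which tests fewer genes, left 1135 genes under an unadjusted p of 0.05, 126 with |log2FC| above 1 and p under 0.01 (247 in the report's setting) and 1 member with the groups apart. Median-of-ratios scaling left 0 members and 3 genes upstream of Ciita under an unadjusted p of 0.05 and turned Cd74 to -0.0033. Quantile normalization gave 4 members apart, 3 genes upstream of Ciita, -0.0034 for Cd74 and -0.012 for H2-DMb1. These scalings moved the median of all genes from 0.09 to 0.00 and -0.02, and the share of higher genes among those under 0.05 from 69.8% to 51.0% and 48.2%; the cause of single reversals was not tested. Voom on recovered reads called 2 genes at the adjusted threshold and 2133 of 14199 at an unadjusted p under 0.05. The labels number the replicates 1 and 2 in both groups, but nothing says that numbers pair the libraries, and the replicate 1 minus replicate 2 differences of the groups correlated at -0.16 across genes, so that the numbers were not taken as pairs. With the replicate block 1247 genes, 0 members and 3 genes upstream of Ciita were under 0.05, and it changed no other count of the members by over 1.5 times.

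With each library left out in turn, 845 to 1732 genes were under an unadjusted p of 0.05 (845 without wt replicate 1, 1073 without cko replicate 2) and 131 to 462 under 0.01 with |log2FC| above 1, where 147 stood without wt replicate 1, 131 without cko replicate 2 and 462 without cko replicate 1. No gene passed the adjusted threshold. Members under 0.05 were 0 to 1, with 0 without wt replicate 1, wt replicate 2 or cko replicate 2, and members apart 3 to 6, since fewer libraries separate more easily. Higher genes of the wider pathway were 1 to 8 (1 without wt replicate 1 or wt replicate 2, 8 without cko replicate 1) and those upstream of Ciita 1 to 5. The log2FC ranged from -0.23 to 0.013 for H2-Aa, with 0.013 without cko replicate 1, from -0.43 to -0.01 for H2-Ab1, 0.04 to 0.41 for H2-Eb1, -0.42 to 0.61 for Cd74, 0.35 to 0.82 for H2-DMa and -0.28 to 0.48 for H2-DMb1, and the median of the members from -0.10 to 0.21. The log2 differences of ratios to Cd74 ranged from -0.63 to 0.21 for H2-Aa, -0.73 to 0.059 for H2-Ab1, -0.21 to 0.49 for H2-Eb1 and -0.98 to 0.99 for H2-DMb1, and that of H2-DMb1 to the presenting chains from -0.47 to 0.73. Depth limits Ciita, with 18 to 34 reads per library.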

Other observations

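The H2-DM chains were also set against each other, with ratios chosen after their values had been seen. H2-DMa divided by H2-DMb1 was 2.13 and 2.07 in wt and 1.88 and 4.80 in cko, so that the high ratio was in cko replicate 2 alone. H2-DMb1 divided by H2-DMb2 was 0.389 and 0.420 in wt and 0.591 and 0.441 in cko. H2-DMa divided by the sum of H2-DMb1 and H2-DMb2 was 0.596 and 0.613 in wt and 0.698 and 1.47 in cko. For the last 2 ratios both cko libraries were above both wt libraries, and a two-sided exact permutation test gave p = 0.333 for each, the smallest value the design allows.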
